A study of Homo sapiens with 8 samples.

Results

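Expression of 9 genes for secreted inflammatory mediators and for the inducible cyclooxygenase was followed across 8 bead arrays of the established human melanoma line HT144. The genes were the cytokines IL6, LIF, IL1A and IL1B, the chemokines CXCL8, CXCL1, CXCL2 and CCL2, and PTGS2, which encodes cyclooxygenase-2. The set was chosen with earlier results of these data known. Its probes were picked by gene symbol, and every probe whose platform annotation names one of the genes was used. That gave 11 of the 48107 deposited probes, with 2 probes each for CXCL8 and PTGS2 and 1 for each of the other 7 genes. All 11 probes passed the filter that left 13974 genes to test, which asked for detection above the negative control beads on at least 2 arrays. IL6, IL1A, IL1B and CXCL2 were detected on only 3 to 5 of the 8 arrays. Each of them met the filter also without the arrays labelled as SETDB1 overexpression, described next.

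The study compared 3 kinds of HT144 cells, and each array came from 1 sample. Per the labels, 2 samples overexpressed SETDB1 (SETDB1 OE), a histone methyltransferase that writes a repressive chromatin mark. A further 3 samples overexpressed a form of it named HC/KA-SETDB1 OE, and 3 carried an empty vector. The cell line is labelled as a melanoma metastasis, no drug or time point is given, and the empty vector samples share the cell line and the introduction of a vector with the others. What HC/KA stands for, the promoter and the vector, and whether each line is 1 clone were not stated in the labels. They do not say either whether replicates came from separate cultures. The p-values below therefore speak to the spread of these samples alone, and that spread may be technical.

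Interleukin-1 alpha and beta bind a shared receptor that signals through MYD88 and the IRAK kinases to the transcription factors NF-kappaB and AP-1. Both factors, with C/EBP proteins, drive transcription of IL6, the chemokines and PTGS2, and the messages carry AU-rich elements that keep them short-lived. In melanoma these products are known as growth, angiogenic and leukocyte-attracting signals of the tumour cells themselves. Cyclooxygenase-2 turns arachidonic acid, released by phospholipase A2, into the precursor of prostaglandin E2.

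Promoters of this kind are commonly read for motifs of these factors. The 250 bases before the annotated start are shown for the 3 genes that passed the test in a comparison below, IL6, IL1B and PTGS2, and for CXCL8, the brightest of the chemokine probes. The sequences are from RefSeq on GRCh38.p14, read 5′ to 3′ on the gene's strand, and 7 of the 9 genes were in that table (CCL2 and LIF were not). Capitals mark matches, on either strand, to an NF-kappaB consensus, GGNNTTTCC, the AP-1 motif TGANTCA and the C/EBP motif TTGCNNAA, and, on the gene's strand only, TATAAA. GGNNTTTCC was added after the sequences had been read, and it overlaps the NF-kappaB consensus.
IL6 (chr7:22726950-22727199, plus strand): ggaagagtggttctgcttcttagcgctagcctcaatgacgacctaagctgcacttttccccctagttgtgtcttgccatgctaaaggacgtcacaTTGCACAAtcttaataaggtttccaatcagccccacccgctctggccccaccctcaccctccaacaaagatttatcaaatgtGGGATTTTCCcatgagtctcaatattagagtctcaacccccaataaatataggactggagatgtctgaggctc
IL1B (chr2:112836780-112837029, minus strand): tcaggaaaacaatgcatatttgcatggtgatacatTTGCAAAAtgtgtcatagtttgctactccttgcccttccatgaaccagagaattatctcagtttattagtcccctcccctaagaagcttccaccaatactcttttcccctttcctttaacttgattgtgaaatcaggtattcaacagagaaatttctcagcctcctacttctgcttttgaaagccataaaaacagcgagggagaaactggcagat
CXCL8 (chr4:73740319-73740568, plus strand): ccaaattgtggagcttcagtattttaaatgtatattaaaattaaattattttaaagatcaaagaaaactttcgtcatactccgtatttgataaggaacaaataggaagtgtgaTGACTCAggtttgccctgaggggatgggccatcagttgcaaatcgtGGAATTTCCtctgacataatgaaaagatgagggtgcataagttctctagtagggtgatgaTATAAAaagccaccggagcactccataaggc
PTGS2 (chr1:186680424-186680673, minus strand): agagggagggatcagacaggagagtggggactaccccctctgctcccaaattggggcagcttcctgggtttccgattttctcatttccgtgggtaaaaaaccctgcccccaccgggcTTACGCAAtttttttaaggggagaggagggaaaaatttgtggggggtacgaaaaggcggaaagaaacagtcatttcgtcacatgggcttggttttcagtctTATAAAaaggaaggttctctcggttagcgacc
CXCL1 and CXCL2 lie on the same chromosome and have near-copies of each other's proximal promoter, shown here because CXCL1 was bright on every array and CXCL2 at the edge of detection. Of the last 98 bases before the start, 93 are identical between them, with 2 gap positions in the alignment.
CXCL1 (chr4:73869295-73869392, plus strand): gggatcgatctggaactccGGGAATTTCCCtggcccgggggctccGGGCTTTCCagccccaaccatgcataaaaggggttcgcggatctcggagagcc
CXCL2 (chr4:74099196-74099293, minus strand): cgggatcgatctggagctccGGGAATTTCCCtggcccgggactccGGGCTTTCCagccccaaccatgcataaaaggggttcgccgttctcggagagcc

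Matches to the NF-kappaB consensus stood in 3 of the 7 promoters, at 73 bases upstream of the start in IL6, 79 in CXCL1 and 78 in CXCL2. It occurs in 9.96% of the 35116 promoters of the table. GGNNTTTCC stood in those 3 and in CXCL8, 91 bases upstream, against 5.48% of all promoters. The C/EBP motif stood in IL6, IL1B, CXCL2 and PTGS2 (9.05% of all promoters), and the AP-1 motif in CXCL8 and IL1A (6.57%). TATAAA was found in CXCL8, 31 bases upstream, in PTGS2, 32 bases upstream, and 239 bases ahead of 1 of the 2 listed starts of IL1A (6.8%). These letters are a description of the windows and say nothing about binding in HT144.

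The deposited intensities of the arrays were alike in scale, with medians of 89.0 to 94.4 and 44.6% to 45.7% of probes detected. Intensities were background-corrected and quantile-normalized to log2 values, and the lowest detected probes lay at 4.52 to 4.58 on that scale. The probe for SETDB1 read 8.0 and 7.66 on the SETDB1 OE arrays, 8.32, 8.42 and 9.0 on the HC/KA-SETDB1 OE arrays, and 8.25, 8.19 and 8.04 on the empty vector arrays. The arrays labelled SETDB1 OE were thus the lowest of all 8, below every empty vector array, and the HC/KA-SETDB1 OE arrays lay above every empty vector array. Neither difference passed (−0.33, limma adjusted p = 0.692, and 0.42, adjusted p = 0.463), but the order of the SETDB1 OE arrays goes against their label. Below, SETDB1 OE stands for the arrays labelled so, and every direction given for it carries that limit. Where this probe lies on the message was not analysed here. All arrays lay on 1 chip with the groups at neighbouring positions, so position and group cannot be told apart. HC/KA-SETDB1 OE replicate 2 correlated more closely with empty vector replicate 3 (r = 0.987) than with its own group over the genes tested.

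Markers of the melanocyte lineage were present in every sample: MITF, SOX10, MLANA, PMEL, TYR, TYRP1 and S100B were detected on all 8 arrays. The summed level of the 11 measured markers (of 12 listed) lay at 6442 to 6647 on the SETDB1 OE arrays, 7736 to 12633 on the HC/KA-SETDB1 OE arrays and 13260 to 20150 on the empty vector arrays. PMEL, the brightest of them, read 10.95 and 11.38 on the log2 scale in SETDB1 OE, 11.46, 10.44 and 11.93 in HC/KA-SETDB1 OE, and 13.38, 12.89 and 12.97 in empty vector. Counted by gene, 1 of 11 was higher in SETDB1 OE than in empty vector (median −0.81), but 8 of 11 were higher in HC/KA-SETDB1 OE (median 0.12), against the order of the sums. TYR, the enzyme that starts melanin synthesis, fell in SETDB1 OE against empty vector (−1.50 log2, adjusted p = 0.0382) and against HC/KA-SETDB1 OE (−1.62, adjusted p = 0.00772). S100B fell against HC/KA-SETDB1 OE (−1.36, adjusted p = 0.0445). Blood cell markers, leukocytes being a known source of these cytokines, summed to 1290 to 1593 in SETDB1 OE, 1107 to 2050 in HC/KA-SETDB1 OE and 1517 to 2001 in empty vector (12 of 18 measured). CD68, the brightest of them, made up most of each sum. On the log2 scale it read 9.89 and 10.19 in SETDB1 OE, 10.74, 9.61 and 10.27 in HC/KA-SETDB1 OE, and 10.73, 10.41 and 10.19 in empty vector. CD3E and TYROBP were detected on no array, while CD2, CD14 and CD68 were detected on all 8 by at least 1 probe. Against empty vector 9 of the 12 differences of SETDB1 OE were positive (median 0.08) and 0 passed, S100A9 (1.11, adjusted p = 0.317) and CD2 (0.65, adjusted p = 0.277) among them. Against HC/KA-SETDB1 OE 7 of 12 were positive (median 0.18), and CD14 fell (−1.08, adjusted p = 0.0381). Fibroblast markers summed to 985 to 1847, 2366 to 2641 and 1216 to 2003 in the same groups (8 of 10 measured). COL1A2, their brightest probe, was highest in HC/KA-SETDB1 OE (1.24 log2 above empty vector, adjusted p = 0.213), but only 2 of the 8 differences of the list were positive there (median −0.30). On its brightest probe DCN rose in SETDB1 OE against HC/KA-SETDB1 OE (1.20, adjusted p = 0.0478). Of 3 measured endothelial and 3 measured epithelial markers (of 8 listed each) 0 passed, and CDH5 was detected on no array. Of 17 alternatives, 11 and 15 kept the TYR calls, 8 that of S100B, 6 that of CD14 and 5 that of DCN, and each was lost without either SETDB1 OE array. The part of the melanocyte, blood cell and fibroblast marker differences in the results below was not tested.

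IL6, the ligand that signals through the IL6ST receptor chain and STAT3, was far brighter on the arrays labelled SETDB1 OE than anywhere else. Its deposited intensity (probe ILMN_1699651) was 720 and 203 on the 2 SETDB1 OE arrays, 85.6, 85.1 and 93.0 on the HC/KA-SETDB1 OE arrays, and 77.2, 120 and 92.7 on the empty vector arrays. Both SETDB1 OE arrays stood above every other array, and outside that group the probe was detected only on HC/KA-SETDB1 OE replicate 3 and empty vector replicate 2. On the normalized log2 scale the SETDB1 OE mean was 8.05 ± 1.60 (SD, n = 2), against 4.61 ± 0.19 for HC/KA-SETDB1 OE and 4.89 ± 0.67 for empty vector (SD, n = 3 each).

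IL6 rose in SETDB1 OE against HC/KA-SETDB1 OE by 3.44 on the log2 scale (SE 0.56, 95% CI 2.21 to 4.68), a 10.9-fold difference with an adjusted p of 0.0114 (limma, Benjamini-Hochberg over 13974 genes). Against empty vector the difference was 3.15 (SE 0.56, 95% CI 1.92 to 4.39, 8.90-fold) and missed the threshold of 0.05 at an adjusted p of 0.0559. HC/KA-SETDB1 OE differed from empty vector by −0.29 (SE 0.50, 95% CI −1.39 to 0.81, adjusted p = 0.860), and those arrays overlapped. Both of these groups lay near background, which limits the fold changes of IL6. When the authors' processed values were used instead, SETDB1 OE stood 1.92 above HC/KA-SETDB1 OE and did not pass. With SETDB1 OE replicate 1 left out, the difference from HC/KA-SETDB1 OE was 2.31 and no longer passed (adjusted p = 0.0872). With SETDB1 OE replicate 2 left out, the difference from empty vector was 4.28 and passed (adjusted p = 0.00881).

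LIF, a cytokine of the IL6 family that also signals through IL6ST, showed no such separation. Its log2 level was 6.60 and 6.41 in SETDB1 OE, 5.86, 6.33 and 6.17 in HC/KA-SETDB1 OE, and 5.87, 6.39 and 6.95 in empty vector. Empty vector replicate 3 was the highest of all 8 arrays, and the SETDB1 OE arrays lay within the empty vector range and narrowly above the HC/KA-SETDB1 OE arrays. The SETDB1 OE difference was 0.10 against empty vector (SE 0.30, 95% CI −0.56 to 0.76, adjusted p = 0.947) and 0.39 against HC/KA-SETDB1 OE (SE 0.30, 95% CI −0.27 to 1.05, adjusted p = 0.490). HC/KA-SETDB1 OE differed from empty vector by −0.29 (SE 0.27, adjusted p = 0.719).

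The pair of interleukin-1 genes was dim in all samples and brightest in SETDB1 OE. IL1B, which encodes the form secreted after cleavage by caspase-1, had deposited intensities of 203 and 177 in SETDB1 OE, 86.8, 100.2 and 94.5 in HC/KA-SETDB1 OE, and 86.0, 121 and 85.4 in empty vector. The SETDB1 OE arrays were close to each other and above all others, and empty vector replicate 2 was the only detected array of its group. IL1B rose against HC/KA-SETDB1 OE by 1.94 on the log2 scale (SE 0.34, 95% CI 1.20 to 2.69, 3.85-fold, adjusted p = 0.0150). Against empty vector it stood 1.85 higher (SE 0.34, 95% CI 1.11 to 2.60, 3.61-fold) and missed the threshold (adjusted p = 0.0583). With empty vector replicate 2 left out that value was 2.24 and passed (adjusted p = 0.00511). HC/KA-SETDB1 OE and empty vector differed by −0.09 (adjusted p = 0.934). The rise against HC/KA-SETDB1 OE was lost without SETDB1 OE replicate 1 (1.80, adjusted p = 0.162), without SETDB1 OE replicate 2 (2.09, adjusted p = 0.0827) and without HC/KA-SETDB1 OE replicate 3 (1.99, adjusted p = 0.0511), while its size moved little.

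IL1A, the form that is active as the uncleaved precursor and can stay inside or on the cell, was lower still. Its intensities were 149 and 114 in SETDB1 OE, 85.7, 84.8 and 105 in HC/KA-SETDB1 OE, and 77.8, 97.7 and 77.1 in empty vector. Again both SETDB1 OE arrays were the highest, by a narrow margin over HC/KA-SETDB1 OE replicate 3. The log2 differences of SETDB1 OE were 1.22 against empty vector (SE 0.32, 95% CI 0.51 to 1.93, adjusted p = 0.176) and 0.99 against HC/KA-SETDB1 OE (SE 0.32, 95% CI 0.28 to 1.70, adjusted p = 0.106). Neither passed, and HC/KA-SETDB1 OE differed from empty vector by 0.23 (SE 0.29, adjusted p = 0.802).

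**Figure D1:**
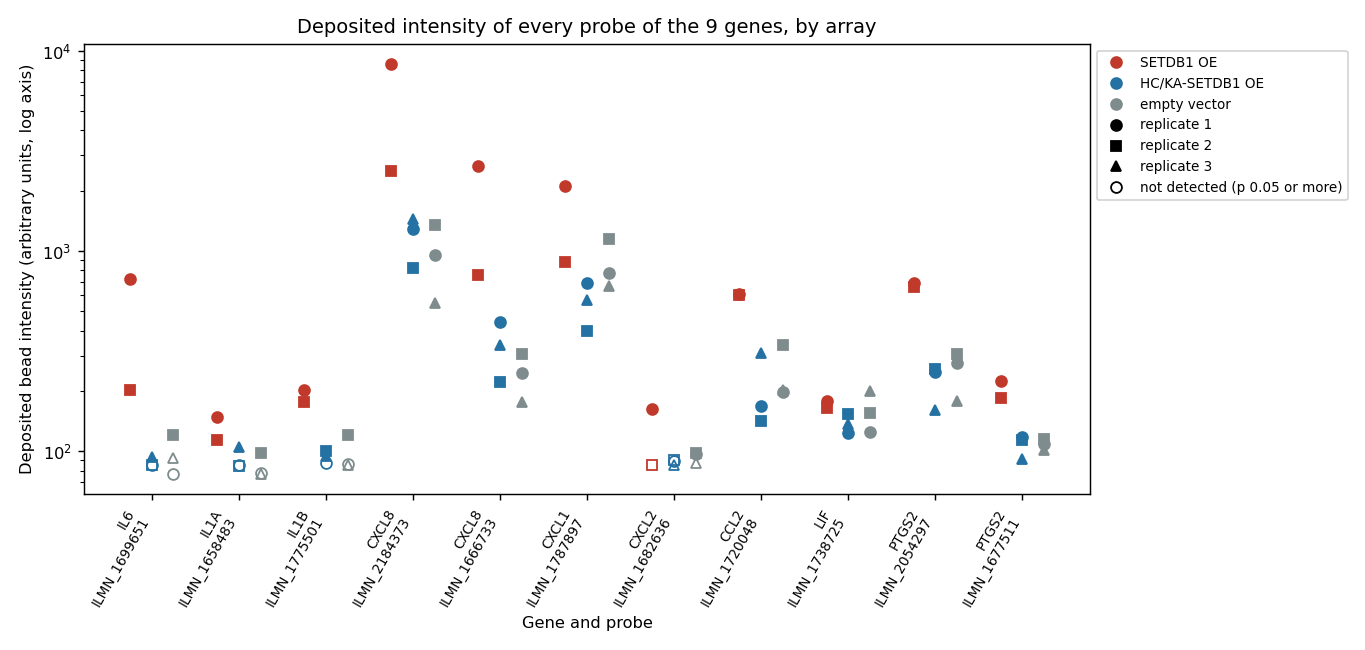
Deposited intensity (log axis, arbitrary units) of all 11 probes, 1 point per array and a marker shape per replicate, for SETDB1 OE (2 arrays), HC/KA-SETDB1 OE (3) and empty vector (3), open where not detected. Both SETDB1 OE points lie above all others for IL6 (720 and 203), IL1A, IL1B, CXCL8, CCL2 and PTGS2, while for LIF, CXCL1 and CXCL2 SETDB1 OE overlaps with empty vector.

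CXCL8, CXCL1 and CXCL2 encode neutrophil-attracting chemokines that share the receptor CXCR2. CXCL8 was the brightest of the set, and its 2 probes gave the same picture. The brighter probe (ILMN_2184373) read 8540 and 2508 in SETDB1 OE, 1283, 823 and 1443 in HC/KA-SETDB1 OE, and 954, 1350 and 550 in empty vector. The other probe (ILMN_1666733) read 2641 and 759 in SETDB1 OE, 443, 221 and 338 in HC/KA-SETDB1 OE, and 245, 304 and 175 in empty vector. On both, the SETDB1 OE arrays were the highest and replicate 1 stood well above replicate 2 (r = 0.984 between the probes over 8 arrays, as a description).

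The log2 difference of CXCL8 on the brighter probe was 2.40 for SETDB1 OE against empty vector (SE 0.55, 95% CI 1.18 to 3.62, 5.28-fold, adjusted p = 0.123). Against HC/KA-SETDB1 OE it was 1.89 (SE 0.55, 95% CI 0.68 to 3.11, adjusted p = 0.0777). Neither passed the threshold, and on the other probe the values were 2.90 (adjusted p = 0.106 over 26689 probes) and 2.22 (adjusted p = 0.0661). HC/KA-SETDB1 OE stood 0.51 above empty vector (SE 0.49, 95% CI −0.58 to 1.59, adjusted p = 0.731), with overlapping arrays.

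CXCL1 was well detected on all arrays and its order differed from that of CXCL8. Intensities were 2118 and 876 in SETDB1 OE, 688, 399.8 and 569 in HC/KA-SETDB1 OE, and 777, 1142 and 672 in empty vector. Here SETDB1 OE replicate 2 lay inside the empty vector range, and the HC/KA-SETDB1 OE arrays were mostly the lowest. SETDB1 OE differed from HC/KA-SETDB1 OE by 1.25 on the log2 scale without passing (SE 0.42, 95% CI 0.33 to 2.17, adjusted p = 0.114). The differences from empty vector were 0.60 for SETDB1 OE (95% CI −0.32 to 1.52, adjusted p = 0.668) and −0.65 for HC/KA-SETDB1 OE (95% CI −1.48 to 0.17, adjusted p = 0.517).

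CXCL2 was at the edge of detection. Its intensities were 163 and 85.3 in SETDB1 OE, 89.4, 90.2 and 84.9 in HC/KA-SETDB1 OE, and 96.8, 97.7 and 87.5 in empty vector. Only SETDB1 OE replicate 1 stood apart, and SETDB1 OE replicate 2 was not detected. No HC/KA-SETDB1 OE array detected it. The SETDB1 OE difference from that group was 0.83 on the log2 scale (SE 0.43, 95% CI −0.12 to 1.78, adjusted p = 0.287), with 1 of 2 SETDB1 OE arrays detected. That value rests on SETDB1 OE replicate 1, since replicate 2 differed from the HC/KA-SETDB1 OE mean by −0.12. HC/KA-SETDB1 OE differed from empty vector by −0.18 (95% CI −1.04 to 0.67, adjusted p = 0.889), with 2 of 3 empty vector arrays detected. With undetected arrays on both sides, no lower bound is given for CXCL2. Where a fold is given below as a minimum, the bright group's mean was set against the lowest detected signal on each array of the dim group. Against empty vector the SETDB1 OE difference was 0.65 on the log2 scale (SE 0.43, 95% CI −0.30 to 1.60, adjusted p = 0.644).

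CCL2, which attracts monocytes through CCR2, was even between the SETDB1 OE arrays. Intensities were 613 and 605 in SETDB1 OE, 168, 141 and 307 in HC/KA-SETDB1 OE, and 197, 338 and 201 in empty vector. Both SETDB1 OE arrays stood above all others, and the other 2 groups overlapped over a wide range. The difference from HC/KA-SETDB1 OE was 1.96 on the log2 scale (SE 0.49, 95% CI 0.88 to 3.05, 3.90-fold), at an adjusted p of 0.0504, just short of the threshold. It was 1.56 against empty vector (SE 0.49, 95% CI 0.48 to 2.65, adjusted p = 0.262), and HC/KA-SETDB1 OE differed from empty vector by −0.40 (SE 0.44, 95% CI −1.37 to 0.57, adjusted p = 0.765). Leaving out HC/KA-SETDB1 OE replicate 3, the highest of its group, gave 2.49 against that group, which passed (adjusted p = 0.0282).

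PTGS2 was the most even of the set between the SETDB1 OE arrays. The brighter probe (ILMN_2054297) read 688 and 664 in SETDB1 OE, 247, 259 and 161 in HC/KA-SETDB1 OE, and 276.5, 304 and 179 in empty vector. The other probe (ILMN_1677511) read 225 and 184 in SETDB1 OE, 118, 113 and 91.3 in HC/KA-SETDB1 OE, and 109, 114 and 102 in empty vector. On both probes the SETDB1 OE arrays lay above all others and the other groups overlapped (r = 0.960 between the probes over 8 arrays, as a description).

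PTGS2 rose in SETDB1 OE against HC/KA-SETDB1 OE by 1.84 on the log2 scale (SE 0.39, 95% CI 0.99 to 2.70, 3.59-fold, adjusted p = 0.0289). The other probe rose by 1.62 (SE 0.29, adjusted p = 0.0239 over 26689 probes). Against empty vector the values were 1.66 (SE 0.39, 95% CI 0.80 to 2.52, adjusted p = 0.123) and 1.63 (SE 0.29, adjusted p = 0.0764), and neither passed. HC/KA-SETDB1 OE differed from empty vector by −0.19 (SE 0.35, adjusted p = 0.873) and 0.01 (adjusted p = 0.989). The rise of the brighter probe did not pass without SETDB1 OE replicate 1 (adjusted p = 0.20), without SETDB1 OE replicate 2 (adjusted p = 0.153) or without HC/KA-SETDB1 OE replicate 3 (adjusted p = 0.0946), at log2 differences of 1.84, 1.84 and 1.53.

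Counted over the set, 3 of 9 genes rose on the arrays labelled SETDB1 OE against HC/KA-SETDB1 OE (IL6, IL1B and PTGS2) and none fell, where 4.34% of all genes tested were called and 2.08% rose. In 8 of 9, all but CXCL2, the SETDB1 OE arrays lay above every HC/KA-SETDB1 OE array, where 17.8% of all genes did. At an unadjusted p under 0.05, 7 were higher, where 10.4% of all genes were. All 9 differences were positive (49.3% of all genes), with a median of 1.84, beside −0.01 for all genes. The 9 genes were chosen with earlier results of these data known. Shares set beside those of all genes, here and below, therefore describe the set and are not independent support. Without SETDB1 OE replicate 1 none of the 9 passed and the median was 0.98, where 0.293% of all genes were called. Without any detection filter none passed either, with 20044 genes adjusted over and 1.37% called.

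Against empty vector, 0 of 9 genes passed in SETDB1 OE by limma, where 0.265% of all genes were called, 0.2% rising and 0.0644% falling. At an unadjusted p under 0.05 there were 6, all higher, where 5.14% of all genes were, and the 2 smallest adjusted p-values of the set, those of IL6 and IL1B, lay just above the threshold. In 6 of 9 (IL6, IL1A, IL1B, CXCL8, CCL2 and PTGS2) both SETDB1 OE arrays lay above all empty vector arrays, where 15.7% of all genes did. All 9 differences were positive, where 49.9% of all genes were, with a median of 1.56 beside −0.00 for all genes. The number passing ranged up to 2 under the alternatives tried, among them array weights, trended and robust moderation, and a fit of these 2 groups alone, each of which called IL6 and IL1B. Leaving out HC/KA-SETDB1 OE replicate 1 also called both (adjusted p = 0.0343 each).

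HC/KA-SETDB1 OE against empty vector gave 0 of 9 called by limma, where 0.322% of all genes were called, and 0 at an unadjusted p under 0.05. Over all genes 0.0787% rose and 0.243% fell there. The arrays of the groups overlapped for all 9 genes, where 8.48% of all genes lay wholly higher and 8.38% wholly lower. The median difference was −0.19, beside 0.01 for all genes, and 2 of 9 differences were positive, where 51.8% of all genes were. The widest 95% intervals in this comparison, those of IL6 and CXCL8, still allowed differences of −1.39 and 1.59 on the log2 scale. The 3 comparisons share arrays pairwise, so their values for a gene are not independent of one another.

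**Figure D2:**
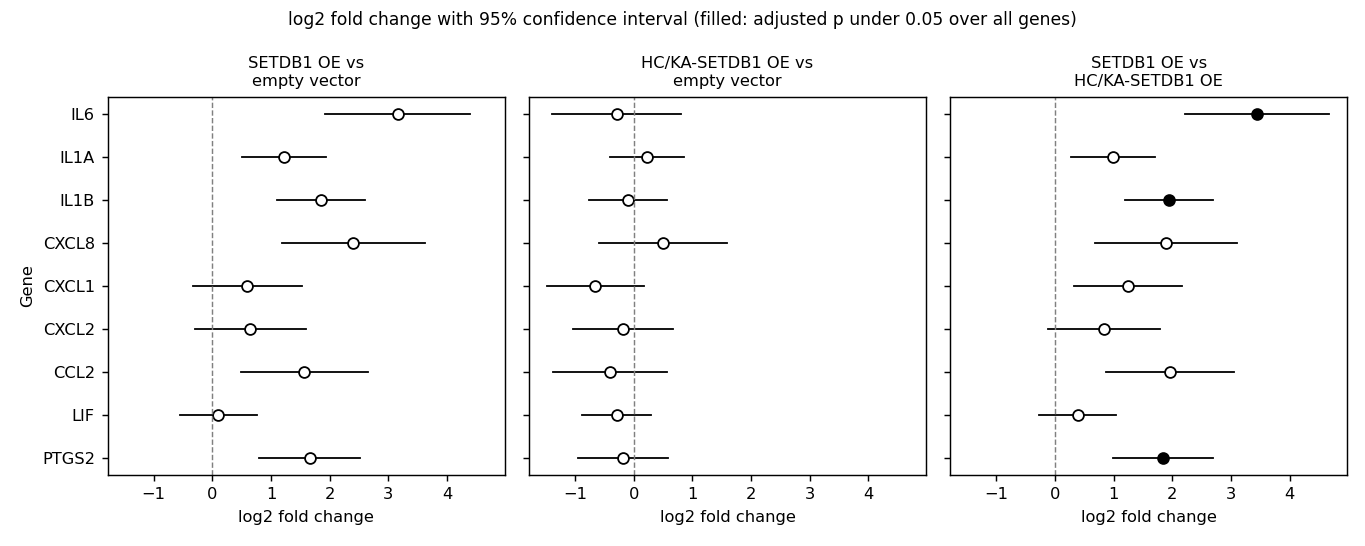
Log2 difference of each gene in the 3 comparisons, with 95% confidence intervals from the limma fit, filled where the adjusted p was under 0.05. IL6 (3.44), IL1B (1.94) and PTGS2 (1.84) passed for SETDB1 OE against HC/KA-SETDB1 OE, and all intervals of HC/KA-SETDB1 OE against empty vector include 0.

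The SETDB1 OE arrays differed from each other more for some of these genes than for nearly all others. Replicate 1 stood above replicate 2 by 2.26 on the log2 scale for IL6, 1.91 for CXCL2, 1.82 for CXCL8 and 1.31 for CXCL1. That is 4 of 9 genes higher by at least 1 in replicate 1, where 1% of all genes were, and 8 of 9 were higher there at all, where 49.8% of all genes were. Counting differences of either sign, 3 of 13974 genes differed more between these arrays than IL6, 14 more than CXCL2, 20 more than CXCL8 and 71 more than CXCL1. IL1A differed by 0.77, IL1B by 0.29 and LIF by 0.18, while PTGS2 (0.00) and CCL2 (−0.05) were level. With 2 arrays there is no test of this difference.

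Set against the empty vector mean, IL6 was 4.28 higher in SETDB1 OE replicate 1 and 2.02 higher in replicate 2, and CXCL8 was 3.31 and 1.49 higher. For PTGS2 both arrays stood 1.66 higher, for CCL2 1.54 and 1.59, and for IL1B 1.99 and 1.71. CXCL1 was 1.25 higher in replicate 1 and −0.06 in replicate 2, and CXCL2 1.60 and −0.31, so both rested on replicate 1 alone. On the normalized scale, empty vector replicate 2 was the highest of its group for 7 of 9 genes, all but LIF and CXCL2.

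**Figure D3:**
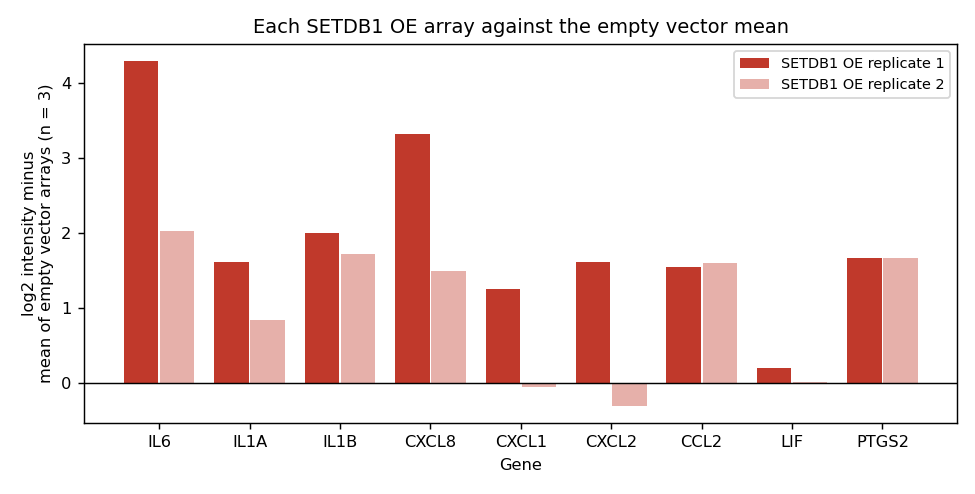
Log2 intensity of each SETDB1 OE array minus the mean of the 3 empty vector arrays, 1 bar per array. IL6 (4.28 and 2.02) and CXCL8 (3.31 and 1.49) differ between the arrays, CXCL1 and CXCL2 are raised in replicate 1 only, and PTGS2 (1.66 in both) and CCL2 are level.

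Over the 8 arrays IL6 ran most closely with IL1B (r = 0.938), IL1A (0.907) and CXCL8 (0.900), and IL1A with CXCL8 (0.936). LIF stood apart, with correlations between −0.00 (CXCL8) and 0.39 (IL6). These correlations describe 8 arrays in 3 groups that share a chip and a normalization, and carry no p.

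Among 2133 other genes with an SD of at least 0.5 over the arrays, the 5 closest to the mean profile of the set were MARCHF4 (r = 0.976), KRT80 (0.969), ZDHHC11 (0.964), CARD10 (0.959) and SOD2 (0.957). The profile was the mean, over the 9 genes, of each gene's log2 deviation from its own average. It is high in SETDB1 OE, so genes chosen for it had to be high there too, and their differences are given as a description, with no test. KRT80, a keratin, read 7.71 and 7.002 in SETDB1 OE, 4.54, 4.54 and 4.55 in HC/KA-SETDB1 OE, and 4.47, 5.89 and 4.51 in empty vector. SETDB1 OE replicate 1 and empty vector replicate 2 were the highest of their groups, as for IL6. Both KRT80 probes were undetected in HC/KA-SETDB1 OE, so the difference of SETDB1 OE from it was at least 6.95-fold on the brighter one. Against empty vector, where KRT80 was detected on 1 of 3 arrays, that probe stood 2.39 higher on the log2 scale and the other 0.88. SOD2, a mitochondrial antioxidant enzyme, stood 1.11 above HC/KA-SETDB1 OE and 1.21 above empty vector. ZDHHC11 had 2 more probes, with differences of −0.09 and −0.25 where the named probe gave 1.70, so it is uncertain.

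Genes around the set were followed in 8 lists by role. Over all genes tested, 4.34% were called for SETDB1 OE against HC/KA-SETDB1 OE. Against empty vector 0.265% were called for SETDB1 OE and 0.322% for HC/KA-SETDB1 OE. Calls in the lists below are to be read beside these shares. Whether any list held more calls than they give was not tested. None of 13 measured receptors (of 18 listed) passed in any comparison, with median differences of 0.16 for SETDB1 OE against empty vector and 0.15 against HC/KA-SETDB1 OE. IL1R1, the signalling receptor of both interleukin-1 forms, was 0.59 higher in SETDB1 OE than in empty vector (adjusted p = 0.311), and IL6ST 0.52 higher (0.461).

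Of 15 measured genes in the interleukin-1 and interleukin-6 signal relay (of 17 listed), 1 rose. IRAK2, a kinase of the MYD88 complex, read 7.94 and 7.55 in SETDB1 OE, 6.46, 6.05 and 5.95 in HC/KA-SETDB1 OE, and 6.29, 6.59 and 5.999 in empty vector. Both SETDB1 OE arrays were above all others. IRAK2 rose by 1.59 against HC/KA-SETDB1 OE (SE 0.25, adjusted p = 0.0104) and was 1.45 higher than in empty vector (SE 0.25, adjusted p = 0.0539). The rise did not pass without SETDB1 OE replicate 1 (1.39, adjusted p = 0.131) or replicate 2 (1.78, adjusted p = 0.0543). The adaptor MYD88 was 0.74 higher than in HC/KA-SETDB1 OE (adjusted p = 0.0543).

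Feedback inhibitors and other NF-kappaB targets gave 2 rises among 13 measured (of 16 listed), both against HC/KA-SETDB1 OE. NFKBIE, an inhibitor that holds NF-kappaB in the cytoplasm, read 8.51 and 7.55 in SETDB1 OE, 5.82, 7.05 and 6.09 in HC/KA-SETDB1 OE, and 7.26, 7.61 and 7.27 in empty vector. TNFAIP3, the ubiquitin-editing brake on the pathway, read 8.26 and 6.53 in SETDB1 OE, 5.14, 5.90 and 5.60 in HC/KA-SETDB1 OE, and 6.27, 6.16 and 6.08 in empty vector. Both were lower in HC/KA-SETDB1 OE than in every empty vector array, though neither of those differences passed. NFKBIE rose by 1.71 (SE 0.37, adjusted p = 0.0337) and TNFAIP3 by 1.85 (SE 0.42, adjusted p = 0.0381). Without SETDB1 OE replicate 1 they gave 1.23 (adjusted p = 0.285) and 0.98 (adjusted p = 0.240), and of 17 alternatives 9 kept the call for NFKBIE and 8 for TNFAIP3. Against empty vector all 13 differences of the list were positive (median 0.33), where 49.9% of all genes were, and 0 passed.

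None of 21 transcription factors of the NF-kappaB, AP-1, C/EBP, EGR, IRF and STAT families passed. FOSL1, an AP-1 subunit, came closest at 1.12 above HC/KA-SETDB1 OE (SE 0.28, adjusted p = 0.0500011) and 1.40 above empty vector (adjusted p = 0.0869). RELA was 0.80 above HC/KA-SETDB1 OE (adjusted p = 0.105), and the median of the list was 0.02 in that comparison. Of 11 measured factors of message decay and stability (of 12 listed) 0 passed. ELAVL1, an RNA-binding protein that stabilises AU-rich messages, was lower (−0.96, adjusted p = 0.0567), and ZFP36L2, a protein that destabilises them, was higher (1.34, adjusted p = 0.0794), both against HC/KA-SETDB1 OE.

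Among 12 measured further cytokines (of 22 listed) 0 passed. CCL20, a chemokine for lymphocytes and dendritic cells, read 7.75 and 6.05 in SETDB1 OE, 4.74, 5.35 and 5.21 in HC/KA-SETDB1 OE, and 5.20, 6.18 and 5.13 in empty vector. It was 1.80 above HC/KA-SETDB1 OE (adjusted p = 0.0557). IL24, an IL10-family cytokine first described as a melanoma differentiation-associated gene, ran the other way against HC/KA-SETDB1 OE only. It read 12.65 and 10.29 in SETDB1 OE, 13.50, 13.43 and 13.55 in HC/KA-SETDB1 OE, and 11.15, 10.81 and 11.54 in empty vector. SETDB1 OE replicate 1 lay above every empty vector array and replicate 2 below every one. The HC/KA-SETDB1 OE arrays were the highest and close to each other, at 2.33 above empty vector (SE 0.47, adjusted p = 0.0855), and SETDB1 OE differed from them by −2.02 (SE 0.52, adjusted p = 0.0553).

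Interleukin-1 processing genes gave 1 call in each of 2 comparisons among 9 measured (of 12 listed). Those comparisons called 4.34% (SETDB1 OE against HC/KA-SETDB1 OE) and 0.322% (HC/KA-SETDB1 OE against empty vector) of all genes. CAPN2 is a calpain subunit of the protease that can cleave the IL1A precursor. It read 7.36 and 7.65 in SETDB1 OE, 5.21, 6.09 and 6.07 in HC/KA-SETDB1 OE, and 6.26, 6.91 and 6.44 in empty vector. CAPN2 thus lay above every empty vector array in SETDB1 OE and below every one in HC/KA-SETDB1 OE. It rose by 1.72 against HC/KA-SETDB1 OE (SE 0.30, adjusted p = 0.0166), a call lost without SETDB1 OE replicate 1 (1.86, adjusted p = 0.111) or replicate 2 (1.57, adjusted p = 0.119). PYCARD, the adaptor of the inflammasomes that activate caspase-1, read 4.78 and 6.24 in SETDB1 OE, 4.49, 4.63 and 4.74 in HC/KA-SETDB1 OE, and 7.14, 7.15 and 7.003 in empty vector. It fell in HC/KA-SETDB1 OE against empty vector (−2.48, SE 0.31, adjusted p = 0.0134), and SETDB1 OE stood between the others (−1.59 against empty vector, adjusted p = 0.113). Leaving out HC/KA-SETDB1 OE replicate 3 or empty vector replicate 1 or 2 gave adjusted p-values of 0.0671, 0.0703 and 0.105 for that fall. PYCARD lay near background in HC/KA-SETDB1 OE, which limits the size of the fall. It was −1.21 with quantile normalization without background correction and −1.13 with the authors' processed values, and passed in both. Without any detection filter it did not pass (limma adjusted p = 0.0842).

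In the prostaglandin pathway 1 of 13 measured genes (of 19 listed) passed, and it moved opposite to PTGS2. PLA2G4A, the cytosolic phospholipase A2 that frees arachidonic acid, read 5.43 and 5.78 in SETDB1 OE, 6.85, 6.63 and 6.59 in HC/KA-SETDB1 OE, and 6.60, 6.44 and 6.38 in empty vector. Both SETDB1 OE arrays were below all others. PLA2G4A fell against HC/KA-SETDB1 OE (−1.09, SE 0.20, adjusted p = 0.0193) and was 0.87 log2 lower than empty vector without passing (adjusted p = 0.123). The fall did not pass without SETDB1 OE replicate 1 (−0.91, adjusted p = 0.187), without replicate 2 (−1.27, adjusted p = 0.0663) or without HC/KA-SETDB1 OE replicate 3 (−1.14, adjusted p = 0.0525). PTGS1, the constitutive cyclooxygenase, was −0.58 in HC/KA-SETDB1 OE against empty vector (adjusted p = 0.368). The median of the list was −0.13 for SETDB1 OE against empty vector and −0.03 against HC/KA-SETDB1 OE.

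**Figure D4:**
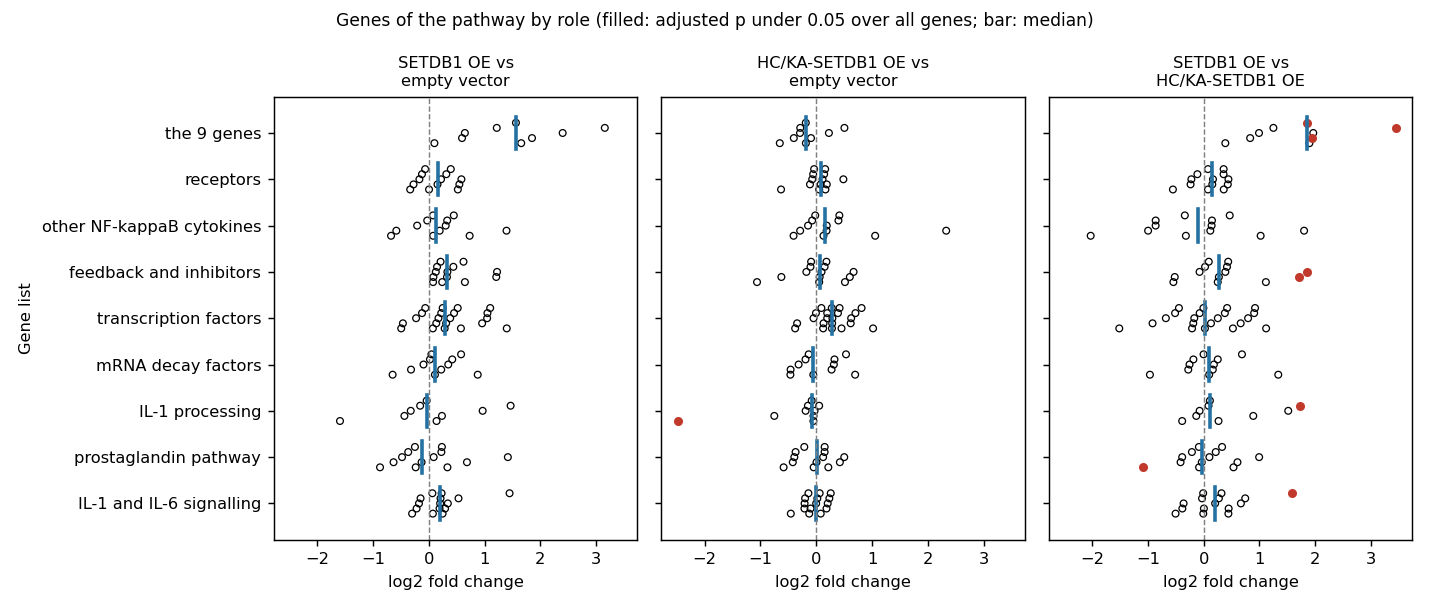
Log2 difference of every measured gene of the set and of the 8 lists of related genes (1 point per gene, filled where the adjusted p was under 0.05, bar at the list's median) in the 3 comparisons. The medians of the 9 genes stand at 1.56 and 1.84 for SETDB1 OE against empty vector and HC/KA-SETDB1 OE and at −0.19 for HC/KA-SETDB1 OE against empty vector, while those of the 8 lists lie between −0.13 and 0.33.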

How the data were processed

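The authors' deposited table of non-normalized intensity values, with a detection p-value per probe and array, was the source of all main values. The authors' processed value table, deposited on a log2 scale, was an alternative. The steps that made it, the build and the scanner software are not given in the sources used here. Of 48107 probes, 5 with a missing cell were dropped. Per the platform annotation, 30110 probes had 1 symbol, 8 several and 17984 none, and 30071 of them matched the RefSeq gene table. Intensities were normalized with neqc (limma 3.58.1, R 4.3.3, offset 16), which uses the detection p-values to set the background and then applies quantile normalization. A probe was kept with detection p under 0.05 on at least 2 arrays, and a gene was represented by its probe of highest mean (13974 genes). A linear model with 1 term per group over all 8 arrays was moderated with eBayes, and p-values were adjusted by Benjamini-Hochberg over all genes, with a call at an adjusted p under 0.05.

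The number of arrays limits the precision. The script was tested on simulated data. All 9 genes, every called gene of a list (else the 2 of smallest adjusted p), and the 5 genes of closest profile were named. The 9 genes and the lists were chosen with earlier results of these data known. Deviations of same-numbered HC/KA-SETDB1 OE and empty vector arrays from their group means correlated at 0.459, 0.189 and 0.145 (numbers from the sample titles). Arrays of different numbers were not compared in this way, so whether the numbers pair arrays is not settled. Blocking on the number left 0 of the 9 genes called in HC/KA-SETDB1 OE against empty vector, with 127 genes called in place of 45. A total of 18 alternatives was run.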

Additional observations from a re-analysis of the deposited data

Results flagged for a closer look

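The arrays labelled SETDB1 OE and HC/KA-SETDB1 OE differed for 3 genes when set directly against each other. The empty vector arrays drop out of these differences, but they still enter the shared estimate of spread behind the p-values. None of these genes passed against empty vector in either group. The SETDB1 probe read lowest on the arrays labelled SETDB1 OE, and whether the constructs account for the difference was not tested. The difference was 3.44 on the log2 scale for IL6 (adjusted p = 0.0114), 1.94 for IL1B (adjusted p = 0.0150) and 1.84 for PTGS2 (adjusted p = 0.0289). Both SETDB1 OE arrays were above all 3 HC/KA-SETDB1 OE arrays for each of them, where 17.8% of all genes were. The 3 genes were picked by this same comparison, so that order is no further support. Over all genes 4.34% were called in it.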

How the results depend on the processing

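The 9 genes were recomputed under 18 alternatives, and of 483 values for single genes 443 kept both direction and side of the threshold, 18 newly passed, 11 no longer passed and 11 changed sign. For SETDB1 OE against empty vector, where 0 genes were called, the count was 1 with scaling to the 75th percentile (IL6, adjusted p = 0.0302), 2 with array weights, 2 with trended and robust moderation, 2 with only these groups in the fit (IL6 and IL1B each time) and 1 with the replicate block (PTGS2, 1.31, adjusted p = 0.0386). Leaving out single arrays gave 0 to 2. The median of 1.56 was 0.89 with quantile normalization without background correction, 0.82 with the authors' processed values, and 1.27 to 1.88 with single arrays left out. For SETDB1 OE against HC/KA-SETDB1 OE, the 3 calls became 0 without a detection filter (adjusted p of 0.0517 for IL6, 0.0501 for IL1B and 0.0772 for PTGS2, with more genes adjusted over) and 0 to 3 with single arrays left out. CCL2 passed as well, giving 4 calls, with the replicate block (2.12, adjusted p = 0.0410), the stricter detection filter (0.0458), trended and robust moderation (0.0383) and 75th percentile scaling (0.0305), and IL6 missed with the authors' values (1.92, adjusted p = 0.0514). The median of 1.84 was 1.14 with quantile normalization alone, 1.14 with the authors' values, 1.49 with the replicate block and 0.98 to 1.90 with single arrays left out. HC/KA-SETDB1 OE against empty vector gave 0 calls under all 18 alternatives, with medians of −0.31 to 0.04. For SETDB1 OE the correlations of same-numbered deviations were 0.147 and 0.119 with empty vector and 0.116 and 0.0309 with HC/KA-SETDB1 OE. The first of these was no lower than the 0.145 of replicate 3 between HC/KA-SETDB1 OE and empty vector. These values therefore do not show which groups, if any, the replicate numbers pair.

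All 11 sign changes came from leaving out 1 array, in values that did not pass. For SETDB1 OE against empty vector they were CXCL1 (−0.059) and CXCL2 (−0.31) without SETDB1 OE replicate 1, and LIF (−0.17) without empty vector replicate 1. The lowest and highest values with single arrays left out were −0.059 and 1.25, −0.31 and 1.60, and −0.17 and 0.38 for these genes. For HC/KA-SETDB1 OE against empty vector they ranged over −0.55 to 0.088 for IL6, −0.040 to 0.39 for IL1A, −0.30 to 0.29 for IL1B, −0.93 to 0.026 for CCL2 and −0.57 to 0.13 for PTGS2. CXCL2 in SETDB1 OE against HC/KA-SETDB1 OE ranged over −0.12 to 1.79, the lowest without SETDB1 OE replicate 1. Over all genes the 37, 45 and 606 calls of the 3 comparisons ranged over 11 to 155, 2 to 255 and 41 to 1315. CXCL2 was not tested under the stricter filter. With SETDB1 OE reduced to 1 array, that array is assumed to vary like the other groups. IL6, IL1A, IL1B and CXCL2 lie near background outside SETDB1 OE, which limits their fold changes. The cause of these shifts was not tested.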
